A study of Mus musculus with 5 samples.

Results

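The Hox genes of clusters A to D and the genes of their cofactor families Meis and Pbx were followed in sorted haematopoietic stem cells of the long-term class (LT-HSCs) from mice with and without Lrf, the transcription factor encoded by Zbtb7a. Members were the genes with at least 1 probe set that the platform annotation gives to that gene alone and whose symbol is that of a Hox gene of the 4 clusters or of a Meis or Pbx gene. This gave 39 of 18193 such genes on the array (33 Hox, 3 Meis and 3 Pbx genes), read by 63 probe sets.

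Controls were 2 C57BL/6 samples of genotype Zbtb7a Flox/+ Mx1-Cre+, and knockouts were 3 of genotype Zbtb7a Flox/Flox Mx1-Cre+. All came from mice aged 4 weeks that had received 2 injections of 250 µg pIpC, an analogue of double-stranded RNA, and cells were taken on day 9 after the first injection. Cre was driven by the Mx1 promoter, which interferon and pIpC switch on in many cell types, and both groups carried it. The controls had lost at most 1 Zbtb7a allele, so the comparison was of homozygous with heterozygous deletion. The sort kept LSK cells (lineage-negative, Sca-1+, Kit+) that were CD150+ and lacked CD48, Flt3 and IL7Ra. The description of knockout 3 joins 2 animal numbers, and the labels do not say more about pooling. The labels otherwise name separate mice, and p-values measure the spread between these samples.

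Hox proteins are homeodomain transcription factors whose genes lie in 4 clusters, numbered by paralogue group from one end to the other, and in the embryo they assign position along the body axis. Meis and Pbx proteins carry a different type of homeodomain, named TALE for a loop of extra amino acids, and bind DNA together with Hox proteins. In blood, genes of the middle of clusters A and B are known to be active in stem and progenitor cells and to fall as cells mature, Hoxa9 with Meis1 is a well-known driver of acute leukaemia, and Hoxb5 has been used as a reporter of long-term stem cells.

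The arrays read Meis1, Hoxa9, Hoxa5 and Hoxa7 in LT-HSCs. Probe sets of the first 3 were lowest in knockout 2, except 1421579_at of Hoxa9, and that of Hoxa7 was not. Whether promoter sequence bears on these values was not tested. The stretches before the start sites of these 4 genes are shown. Each is the 250 bases upstream of a RefSeq start on GRCm38.p6, 5′ to 3′ on the gene's strand, which is the minus strand for all 4. Capitals mark a match to any of 5 motifs searched on both strands: TGACAG (Meis), TGATNNAT (Pbx with Hox), CCAAT (NF-Y), TGACGTCA (CREB) and CACGTG (E-box).
Meis1, chr11:19018970-19019219: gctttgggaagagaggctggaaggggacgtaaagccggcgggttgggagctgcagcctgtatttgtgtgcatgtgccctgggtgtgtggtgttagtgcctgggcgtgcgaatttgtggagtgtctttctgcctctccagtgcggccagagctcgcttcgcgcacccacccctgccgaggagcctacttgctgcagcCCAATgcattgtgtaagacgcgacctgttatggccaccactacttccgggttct
Hoxa9, chr6:52227371-52227620: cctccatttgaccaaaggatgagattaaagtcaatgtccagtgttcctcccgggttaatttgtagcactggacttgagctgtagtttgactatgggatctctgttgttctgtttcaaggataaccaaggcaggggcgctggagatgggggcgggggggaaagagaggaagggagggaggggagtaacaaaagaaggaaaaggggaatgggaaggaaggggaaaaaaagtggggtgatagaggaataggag
Hoxa5, chr6:52204588-52204837: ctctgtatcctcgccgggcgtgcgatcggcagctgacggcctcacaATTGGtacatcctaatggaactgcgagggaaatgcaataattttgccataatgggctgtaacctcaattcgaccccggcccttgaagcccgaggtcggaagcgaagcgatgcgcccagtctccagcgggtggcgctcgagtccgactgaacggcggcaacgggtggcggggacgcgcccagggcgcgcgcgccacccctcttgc
Hoxa7, chr6:52218574-52218823: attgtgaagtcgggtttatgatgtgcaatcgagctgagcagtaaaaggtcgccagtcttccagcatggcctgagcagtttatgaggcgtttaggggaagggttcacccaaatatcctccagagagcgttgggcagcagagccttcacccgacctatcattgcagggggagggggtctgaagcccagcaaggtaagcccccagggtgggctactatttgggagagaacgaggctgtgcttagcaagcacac

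CCAAT was found once before Meis1, at bases -54 to -50, and once before Hoxa5, on the opposite strand at -204 to -200. The windows of Hoxa9 and Hoxa7 held none of the 5 motifs. RefSeq windows were matched for 24 of 39 members (26 windows), and for 11 of the 17 members above the filter described below. CCAAT occurred in 14 of the 26 member windows (53.8%) and in 33.8% of all 32851 windows of this length. TGATNNAT occurred in 3 (11.5%, against 7.68% of all windows), in front of Hoxa2, Hoxb1 and Hoxd11, and TGACAG in 2 (7.69%, against 15.9%), in front of Hoxa2 and Hoxa3. CACGTG occurred in 4 (15.4%, against 6.02%), all of them Hoxd genes, and TGACGTCA in none (1.55% of all windows). These matches describe the letters only. The windows also differed in CpG dinucleotides, with 28 for Hoxa5, 13 for Meis1, 7 for Hoxa7 and 3 for Hoxa9, against a median of 6 over all windows.

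Values are log2 intensities from RMA, a normalization that gives all arrays the same distribution, so a difference of 1 is a factor of 2. Probe sets with a mean over all 5 arrays below 5.77 (the dimmest 40% of all probe sets) were taken as near background and left out of the tests. A gene's level is that of its brightest probe set. Levels of different probe sets cannot be set against each other, because probes differ in how strongly they bind. Array medians were 6.38 to 6.40. Knockout 2 stood apart from the other arrays: its correlation with them across all probe sets was 0.945 to 0.970, against 0.977 to 0.990 among the other 4. The difference between 3′ and 5′ control probe sets of Actb, a sign of RNA length after amplification, was 3.85 there and 4.90 to 5.21 elsewhere. Differences of the members below are therefore given with and without it where its value moves them. The 3 probe sets of the targeted gene Zbtb7a differed by 0.41, -0.36 and -0.05 between knockout and control, with no difference past the limma test, and the deleted part of the gene is not given in the labels, so they do not check the deletion.

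Of the 39 members, 17 lay above the filter, with 28 probe sets. They were 13 Hox genes (Hoxa3, Hoxa5, Hoxa7, Hoxa9 and Hoxa10, Hoxb2 to Hoxb5, Hoxc6 and Hoxc9, Hoxd9 and Hoxd13), Meis1, Meis3, Pbx2 and Pbx3. By cluster, 5 of 9 Hoxa genes, 4 of 9 Hoxb genes, 2 of 7 Hoxc genes and 2 of 8 Hoxd genes were above it. The other 22 members were near background: Hoxa2, Hoxa4, Hoxa11, Hoxa13, Hoxb1, Hoxb6, Hoxb7, Hoxb9, Hoxb13, Hoxc4, Hoxc5, Hoxc8, Hoxc10, Hoxc13, Hoxd1, Hoxd3, Hoxd8, Hoxd10, Hoxd11, Hoxd12, Meis2 and Pbx4. The value nearest below the filter was that of a Hoxc5 probe set (mean 5.73), and the nearest tested member gene was Hoxd13 (mean 5.81).

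No member passed the test of knockout against control. Of the 28 member probe sets tested, 0 had a limma adjusted p under 0.05 and 0 an unadjusted p under 0.05. Over all 27022 probe sets tested, 0 passed (0%) and 306 had an unadjusted p under 0.05. That is fewer than this threshold would pick if no probe set differed. With 5 arrays, members that did not pass are therefore not shown to be unchanged. The smallest unadjusted p among members was 0.111 (Pbx2 and Pbx3, limma adjusted p = 1). The median difference of the 17 genes was -0.11, beside -0.03 over 12813 genes tested, and 11 of the 17 were negative (64.7%, beside 56.3% of all genes). Without knockout 2 the median was 0.01, with 8 of 17 negative. Every knockout array lay below both controls for 2 member genes, Hoxb4 and Pbx3 (11.8%, beside 4.50% of all genes), and above both controls for 0 (0%, beside 2.68%). By probe set, 2 of 28 were lower in every knockout array (7.14%, beside 4.34% of all probe sets) and 2 were higher, 1 of Pbx2 and 1 of Hoxc6 (7.14%, beside 3.61%). Leaving out an array cannot make separated groups overlap, so Hoxb4 and Pbx3 were bound to stay lower without knockout 2. They were the only lower member genes there (11.8% of 17 genes, beside 13.4% of all genes), and Hoxa3 was higher (5.88%, beside 13.9%). Control 1 decided part of these counts: without it, 7 member genes were lower in every knockout than in control 2 (Hoxa7, Hoxa9, Hoxb2, Hoxb3, Hoxb4, Meis1 and Pbx3; 41.2%, beside 28.9% of all genes) and 2 were higher (Hoxc6 and Hoxd9; 11.8%, beside 16.2%).

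**Figure D1:**
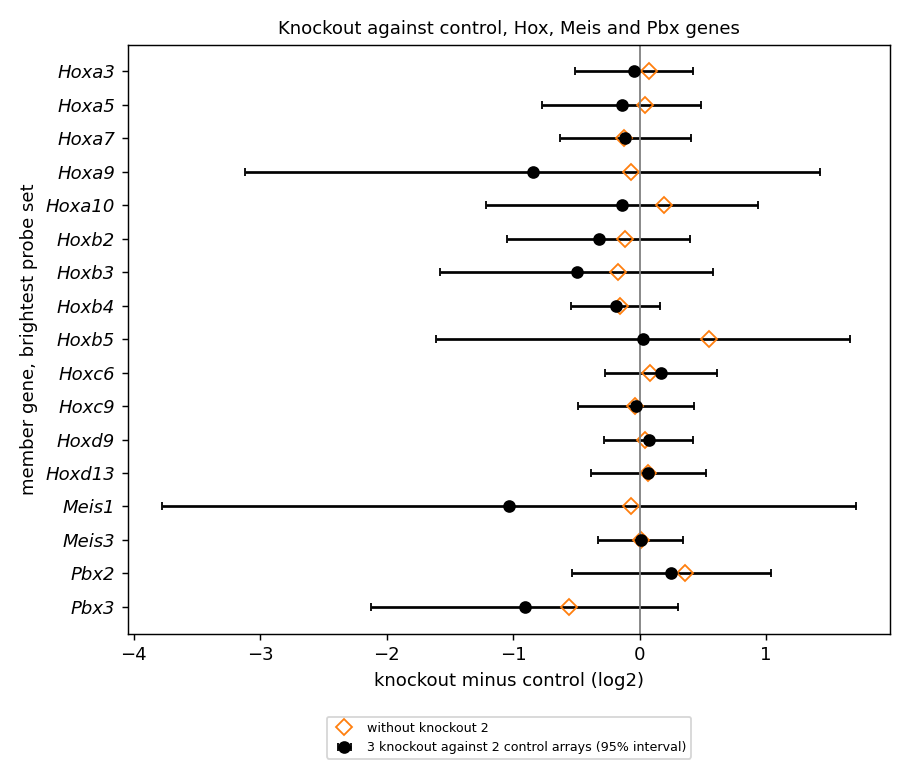
Difference between knockout and control (log2, horizontal axis) for the 17 member genes above the filter, each by its brightest probe set; black points and bars are the limma estimate from 3 knockout and 2 control arrays with its 95% interval, and open diamonds are the difference without knockout 2. All 17 intervals include 0, and the differences of Meis1 (-1.03) and Hoxa9 (-0.85) move to -0.07 without knockout 2.

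Meis1, the TALE cofactor that binds DNA beside Hoxa9, showed the widest spread over arrays among the 17 member genes. Its brightest probe set (1450992_a_at) read 11.14 and 12.12 in controls 1 and 2, and 11.45, 8.67 and 11.66 in knockouts 1, 2 and 3. Knockouts 1 and 3 lay between the controls, and knockout 2 lay below all the others. Controls averaged 11.63 ± 0.69 (SD, n = 2) and knockouts 10.59 ± 1.67 (SD, n = 3), which differ by -1.03 (SE 1.05, 95% interval -3.77 to 1.71, limma adjusted p = 1).

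The other Meis1 probe sets gave the same order of arrays at the low end. Probe set 1443260_at read 10.52 and 11.49 in controls and 11.26, 8.39 and 11.22 in knockouts, and 1459423_at read 8.61 and 9.08 against 8.71, 5.89 and 8.67. Relative to the mean of the other 4 arrays, knockout 2 stood at -2.92, -2.73 and -2.88 on the 3 probe sets, which is 7.58-, 6.64- and 7.34-fold lower on the linear scale. Without knockout 2 the differences between knockout and control were -0.07, 0.24 and -0.16, each smaller than the gap between both controls (0.98, 0.98 and 0.47).

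Hoxa9, a homeobox gene needed for normal numbers of stem and progenitor cells, had the next widest spread. Probe set 1455626_at read 11.54 and 12.55 in controls 1 and 2, and 11.94, 9.65 and 12.01 in knockouts 1, 2 and 3. The arrays fell in the order seen for Meis1, with control 2 highest and knockout 2 lowest. The means were 12.04 ± 0.72 (SD, n = 2) and 11.20 ± 1.34 (SD, n = 3), a difference of -0.85 (SE 0.87, 95% interval -3.12 to 1.42, limma adjusted p = 1), and -0.07 without knockout 2. Knockout 2 was 5.14-fold below the mean of the other 4. A further Hoxa9 probe set, 1421579_at, stayed between 7.38 and 7.47 on all 5 arrays and did not follow the first. The positions of the probes in the gene were not analysed here.

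Hoxa5, a gene of the middle of cluster A, also gave probe sets that disagreed in size. Probe set 1448926_at read 7.92 and 8.91 in controls and 8.40, 6.71 and 8.02 in knockouts, so that knockout 2 lay lowest and control 2 highest. Its difference was -0.70 (SE 0.62), and -0.20 without knockout 2. The brightest, 1443803_x_at, ran from 7.97 in knockout 2 to 8.63 in knockout 1 and differed by -0.14 (SE 0.24), or 0.04 without knockout 2. Probe sets with _x_at in their name may share probes with similar transcripts.

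**Figure D2:**
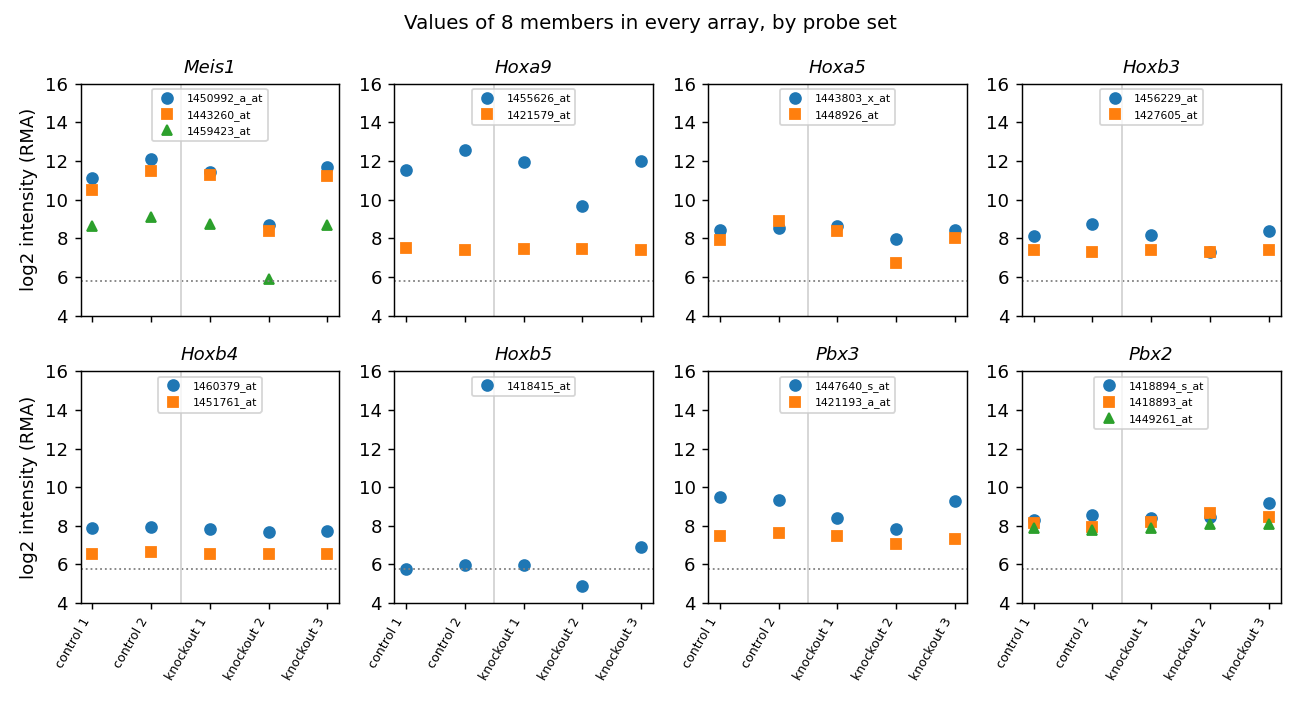
Log2 intensity (vertical axis) in each of the 2 control and 3 knockout arrays for 8 member genes; each symbol type is 1 probe set, the vertical line divides the groups and the dotted line is the filter at 5.77. Meis1, Hoxa9, the lower Hoxa5 probe set and the upper Hoxb3 probe set are lowest in knockout 2, whereas 1 probe set each of Hoxa9, Hoxb3 and Hoxb4 hardly moves.

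The remaining tested genes of cluster A varied less than Hoxa9, with ranges over arrays of 1.21 for Hoxa10, 0.47 for Hoxa7 and 0.40 for Hoxa3. Hoxa10, which like Hoxa9 lies toward the 5′ end of the cluster and can expand progenitors when overexpressed, read 5.71 and 6.17 in controls and 5.92, 5.14 and 6.34 in knockouts. These values straddled the filter, and the difference was -0.14 (SE 0.41), or 0.19 without knockout 2 and -0.41 without knockout 3. Hoxa7 differed by -0.11 (SE 0.20) and Hoxa3 by -0.04 (SE 0.18), or -0.13 and 0.08 without knockout 2. Hoxa7 read 7.49 in knockout 2, inside its range of 7.31 to 7.79 elsewhere, so the low values of that array did not extend to all tested genes of the cluster.

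Cluster B showed the same split between probe sets that varied over arrays and probe sets that hardly did. Whether the latter read transcript or background was not tested. Hoxb3, whose difference fell just short of 0.5 in size and whose values are given after they were seen, read 8.13 and 8.75 in controls and 8.19, 7.28 and 8.35 in knockouts on probe set 1456229_at. It differed by -0.50 (SE 0.41), and by -0.17 without knockout 2, while its probe set 1427605_at stayed between 7.30 and 7.39. Hoxb2 differed by -0.32 (SE 0.28), or -0.12 without knockout 2, and was lowest in knockout 2 (6.10, against 6.52 to 6.92 elsewhere).

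Hoxb4, known for expanding stem cells when overexpressed, was 1 of the 2 member genes whose groups did not overlap. Probe set 1460379_at read 7.90 and 7.96 in controls and 7.82, 7.67 and 7.72 in knockouts. The means were 7.93 ± 0.04 (SD, n = 2) and 7.74 ± 0.07 (SD, n = 3), a difference of -0.19 (SE 0.14, 95% interval -0.55 to 0.16, limma adjusted p = 1). It was -0.16 without knockout 2. The other Hoxb4 probe set, 1451761_at, read 6.63 in control 2 and 6.54 on the remaining 4 arrays.

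Hoxb5, the long-term stem cell reporter gene, lay close to the filter and showed no common direction among knockouts. It read 5.78 and 5.99 in controls and 5.97, 4.86 and 6.90 in knockouts 1, 2 and 3. Knockout 3 was thus the highest and knockout 2 the lowest of the 5 arrays. The difference was 0.03 (SE 0.62, 95% interval -1.61 to 1.66), and 0.55 without knockout 2. It turned to -0.47 without knockout 3, to -0.076 without control 1 and to -0.0038 without knockout 1.

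Probe sets of clusters C and D above the filter varied little over the arrays. Some repeated a value exactly. Hoxd9 read 6.5709 in control 1 and knockouts 1 and 3, Hoxd13 (1422239_at) read 5.7719 in both controls, and Hoxc6 (1427454_at) read 6.4708 in control 2 and knockout 1. Whether these probe sets read transcript or background was not tested, so small ranges are not taken as stable expression. Hoxc6 had 3 tested probe sets, with differences of 0.17, 0.09 and 0.27, or 0.08, 0.14 and 0.18 without knockout 2; on 1427362_x_at all 3 knockouts (6.35 to 6.65) lay above both controls (6.19 and 6.22). Hoxc9 differed by -0.03 (SE 0.17), Hoxd9 by 0.07 (SE 0.13) and Hoxd13 by 0.07 (SE 0.17). Over all Hoxc and Hoxd probe sets, tested or not, the range over the 5 arrays was at most 0.46 and 0.40. Hoxa and Hoxb probe sets reached ranges of 2.91 and 2.04.

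Pbx3, a TALE cofactor that forms complexes with Hoxa9 and Meis1, had all 3 knockout arrays below the controls. Probe set 1447640_s_at read 9.50 and 9.34 in controls 1 and 2, and 8.43, 7.81 and 9.29 in knockouts 1, 2 and 3. Knockout 3 lay just below control 2, and knockouts 1 and 2 lay lower. The means were 9.42 ± 0.11 (SD, n = 2) and 8.51 ± 0.74 (SD, n = 3), a difference of -0.91 (SE 0.46, 95% interval -2.12 to 0.30, limma adjusted p = 1).

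Unlike those of Meis1 and Hoxa9, the Pbx3 difference kept more than 0.5 without knockout 2 (-0.56), although whether these genes differ from each other was not tested. Most of that came from knockout 1, at -0.99 from the control mean, with knockout 3 at -0.13. The size of the Pbx3 difference depended on the array left out, from -1.30 without knockout 3 to -0.56. The other Pbx3 probe set, 1421193_a_at, read 7.46 and 7.64 in controls and 7.46, 7.04 and 7.34 in knockouts, a difference of -0.27 (SE 0.19), or -0.15 without knockout 2, and its groups touched.

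Pbx2, the more widely active family member, went the other way on all 3 of its probe sets without passing the test. Probe set 1418893_at read 8.15 and 7.93 in controls and 8.17, 8.65 and 8.48 in knockouts, and its groups just failed to overlap. Its difference was 0.40 (SE 0.20), and 0.29 without knockout 2. The brightest, 1418894_s_at, differed by 0.25 (SE 0.30), or 0.36 without knockout 2 and 0.0030 without knockout 3, with 9.17 in knockout 3 against 8.28 to 8.57 elsewhere, and 1449261_at by 0.19 (SE 0.15). Meis3 read 6.68 to 6.70 on all 5 arrays.

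**Figure D3:**
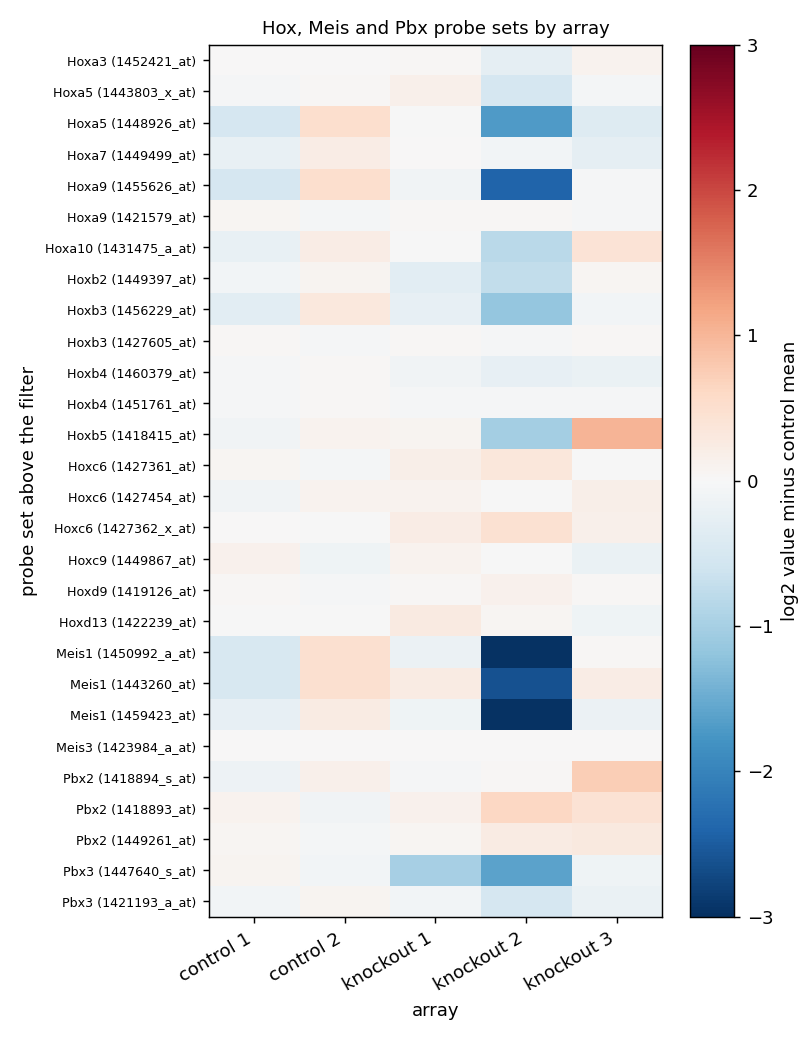
Each of the 28 member probe sets above the filter (rows, by cluster and gene) in each array (columns), coloured by its log2 value minus the mean of the 2 controls. Blue cells (lower) gather in knockout 2, for Meis1, Hoxa9, Hoxa5, Hoxb3 and Pbx3 among others, and probe sets of Hoxc, Hoxd and Meis3 stay near white.

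Across the 28 tested probe sets, 9 from 7 genes had a range over arrays of at least 1. All 9 were lowest in knockout 2, 6 were highest in control 2, and 8 were higher in control 2 than in control 1. A low value in knockout 2 itself widens the range by which these 9 were picked. Shares over all probe sets with such a range are not given. These counts are therefore not read as a result about the members. By gene, 6 of 17 had a range of at least 1 on the brightest probe set (35.3%, beside 33.0% of all 12813 genes), and 3 of 17 without knockout 2. Leaving out an array cannot widen a range, and the share over all genes without knockout 2 is not given. The lower count is therefore not read as a result about the members. Knockout 2 lay at least 1 below the mean of the other 4 arrays for 5 of 17 member genes (Meis1, Hoxa9, Pbx3, Hoxb5 and Hoxb3; 29.4%, beside 10.3% of all genes). The median of this deviation was -0.32 over the members and -0.07 over all genes.

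The low member values of knockout 2 went with low values of other stem cell genes on the same array. Of 20 markers of long-term stem cells, such as Mecom, Hlf, Procr, Fgd5 and Slamf1, 18 had a probe set and all 18 lay above the filter. Their median relative to the control mean was -0.42 and 0.42 in controls 1 and 2, and -0.25, -2.17 and 0.03 in knockouts 1, 2 and 3. Their summed signal (log2 of the sum of linear intensities) was 14.32 to 15.02 in controls and 12.72 to 14.59 in knockouts. In bulk RNA, fewer cells of a type and less RNA per cell cannot be told apart.

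Markers of several other blood cells, and immediate early genes such as Fos, Jun and Egr1, had their highest values on the same array. Medians cover the tested genes of a list, and summed signals every listed gene with a probe set, also those below the filter. For the 9 immediate early genes the sums were 10.81 to 11.32 in controls and 10.57 to 14.96 in knockouts. The median of the 7 tested was -0.15 to 0.18 from the control mean in knockouts 1 and 3, and 3.68 above it in knockout 2. Granulocyte-monocyte progenitor genes (7 tested of 8) lay 1.43 above, lymphoid genes (9 of 13) 1.69 above and mast cell and basophil genes (5 of 7) 2.63 above the control mean there. Their summed signals were 14.27 to 14.30, 10.83 to 11.41 and 8.67 to 8.93 in controls and 13.47 to 15.44, 11.38 to 12.89 and 9.27 to 11.75 in knockouts. Macrophage genes (10 of 10) stood at -1.93, -2.90 and -0.80 relative to the control mean in knockouts 1, 2 and 3, with sums of 14.12 to 15.02 in controls and 12.59 to 13.89 in knockouts. Erythroid genes (7 of 8) had sums of 13.68 to 15.43 and 14.87 to 15.13, and megakaryocyte genes (6 of 7) 12.13 to 12.56 and 10.95 to 12.24. Stroma and endothelium genes, cells in which Hox genes of all clusters can be active, had 5 of 11 members above the filter, with Col1a1, Col3a1, Lepr, Cdh5, Pecam1 and Lum near background, and sums of 9.80 to 10.10 and 9.85 to 10.66. Of its 5 members above the filter (Col1a2, Cxcl12, Kdr, Dcn and Pdgfrb), Pdgfrb, a receptor of perivascular cells, varied most, with 6.15 and 8.46 in controls and 9.26, 6.65 and 9.79 in knockouts 1, 2 and 3. Its difference was 1.26 (SE 1.22), or 2.22 without knockout 2. Whether other cells contributed to these marker values or to the member values was not tested.

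**Figure D4:**
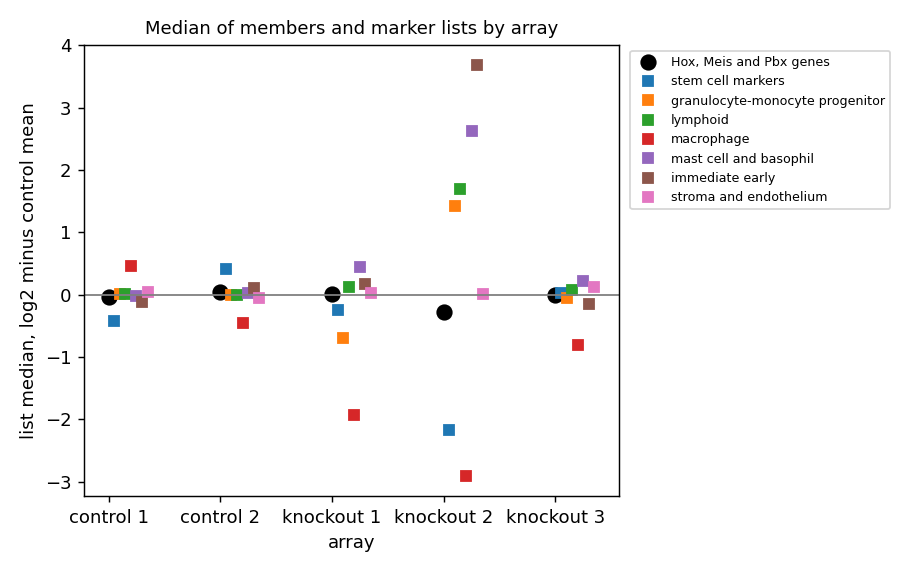
Median log2 value of the 17 member genes (black) and of 7 marker lists (coloured squares, shifted sideways for legibility) in each array, relative to the mean of the 2 controls. In knockout 2 the members lie at -0.28 and stem cell markers at -2.17, with immediate early genes at 3.68.

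Genes that regulate the Hox clusters did not pass the test. Of 30 such genes, 27 were tested, 0 rose and 0 fell by the limma adjusted p, 0 had an unadjusted p under 0.05, and the median difference was -0.01, or 0.04 without knockout 2. The 3 with the smallest p were Ash2l, a subunit of histone H3K4 methyltransferase complexes (-0.37, SE 0.25; -0.17 without knockout 2), Kmt2a, the methyltransferase MLL that maintains Hox activity (-0.40, SE 0.27; -0.29 without it), and Asxl1, a chromatin regulator mutated in myeloid disease (-0.26, SE 0.19; -0.19 without it). Mllt3, a partner of MLL in leukaemic fusions and chosen after its values were seen, read 10.25 and 10.60 in controls and 10.23, 8.37 and 10.65 in knockouts, lowest in knockout 2 as Meis1 was.

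Other TALE genes and partners (14, of which 8 were tested) had a median of 0.08, or 0.0017 without knockout 2, with 0 past the test in either direction and 0 with an unadjusted p under 0.05. The smallest p belonged to Tgif1, a TALE repressor (0.34, SE 0.20; 0.39 without knockout 2), Crebbp, a histone acetyltransferase (0.16, SE 0.20; 0.26 without it), and Pknox2, a TALE factor related to Meis (-0.08, SE 0.13; -0.09 without it). Of 19 genes reported as Hox or Meis targets, 18 were tested. Their median was -0.09, or 0.02 without knockout 2, with 8 positive, 10 negative and 0 past the test. An unadjusted limma p under 0.05 was seen for 2 of the 18, beside 306 of all 27022 probe sets tested. The list was chosen with earlier results of these data known, so this count is not read as a result about it.

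Those 2 targets differed in opposite directions. Pim1, a survival kinase, read 10.71 and 10.58 in controls and 11.28, 11.58 and 11.31 in knockouts, a difference of 0.74 (SE 0.17, limma adjusted p = 1), and 0.65 without knockout 2. Igf1, a growth factor, read 10.11 and 9.26 in controls and 7.84, 7.27 and 8.70 in knockouts, a difference of -1.75 (SE 0.51, limma adjusted p = 1), and -1.41 without knockout 2. The macrophage list given above had its values in the same direction as Igf1. Bcl2, an inhibitor of cell death, differed by -0.55 (SE 0.31), or -0.37 without knockout 2.

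The 35 member probe sets below the filter added little variation. Their range over the 5 arrays was 0 to 1.24 with a median of 0.28, and 27 stayed within 0.5. Hoxc10 read 4.66 on every array. The widest was a Hoxa3 probe set, 1427433_s_at, with 4.28 in knockout 2 and 5.03 to 5.52 elsewhere. Probe set 1417129_a_at of Meis2, a TALE gene of the embryo and nervous system, was lower in all 3 knockouts (4.34 to 4.65) than in controls (4.88 and 4.89), at levels near background, and its other 3 probe sets overlapped between groups.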

How the data were processed

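RNA of sorted LT-HSCs from 2 control and 3 knockout samples was measured on Affymetrix mouse arrays after 2 rounds of in vitro transcription, per the labels' protocols. The deposited values are log2 intensities, which the authors computed by RMA; the submitters' processing notes also name Affymetrix Expression Console, with program versions not given in the sources used here. This step equalises the arrays' distributions, so a shift common to most genes is not visible.

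From these, 64 control rows of 45101 and the dimmest 40% of the rest were left out, and 27022 probe sets were fitted with limma 3.58.1 in R 4.3.3 (no covariate, eBayes, two-sided, Benjamini-Hochberg over all of them, threshold 0.05). SEs and 95% intervals are moderated. Of 45037 probe sets, 34945 had 1 gene symbol, 932 several and 9160 none. The fit was tested on simulated data with independent noise for each probe set. The simulation held no array that differed across many genes at once, as knockout 2 did, so it does not check the fit for that. The number of arrays limits precision, and an exact permutation of 2 against 3 arrays cannot go below p = 0.1. Members and lists were chosen with earlier results of these data known. Named with all values were Hoxa9, Hoxa10, Hoxb4, Hoxb5, Meis1, Pbx3 and members whose groups did not overlap or differed by at least 0.5, then the 3 smallest p of each pathway list. Promoter windows came from RefSeq. Alternatives were other filters, priors, weights, normalizations, probe set averaging, leaving out each array, and the replicate number as a block. Figures used matplotlib 3.10.9.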

Additional observations from a re-analysis of the deposited data

How the results depend on the processing

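Under every alternative listed (no filter, the lowest 60% left out, a trend and robust prior, array weights, cyclic loess, median centring, averaged probe sets, the replicate block and leaving out each array), 0 member genes and 0 pathway genes passed, and 0 of all probe sets did. The median difference of member genes, -0.11, became -0.34 over the 8 genes left with the lowest 60% removed and 0.018 with array weights, and was -0.19 to 0.01 without single arrays. Hoxb4 and Pbx3 stayed lower in every knockout array with cyclic loess, median centring and averaged probe sets. The other alternatives could not change this. They keep the array values, or leave out an array, which cannot make separated groups overlap. The count of lower genes was 2 to 7 without single arrays, with 7 without control 1, the lower of the controls for Meis1 and Hoxa9; a lone control is assumed to vary like the knockouts. The count of higher genes, 0, became 1 (Hoxd9) with median centring and 2 (Hoxc6 and Pbx2) with averaged probe sets, and was 0 to 2 without single arrays. The shares over all genes moved with the setting too. Lower genes were 4.50% with all arrays, 13.4% without knockout 2 and 28.9% without control 1, and higher genes 2.68%, 13.9% and 16.2%. For the other settings these shares are not given, so their counts are not read as a result about the members. The Hoxa10 difference became 0.015 with array weights and -0.41 with the replicate block. Without single arrays it ran from -0.37 to 0.19 where the gene stayed above the filter. It was 0.093 without control 2 and -0.41 without knockout 3, where the gene fell below the filter. The Hoxb5 difference likewise ran from -0.076 to 0.55, and was -0.47 without knockout 3, where it was below the filter, and with the replicate block. The animals behind equal replicate numbers differ, and the deviations of same-numbered arrays correlated at -0.58 across probe sets, so the numbers were not taken to pair the samples; the replicate block, in which knockout 3 has no partner, gave a median of -0.18. Hoxb5, Hoxa10 and Hoxd13 lie near the filter, so their differences are limited by background. Some probe sets further above it repeated a value exactly. Hoxb4 probe set 1451761_at read 6.5403 in all knockouts and control 1, and Meis3 read 6.6776 in both controls and in knockouts 2 and 3. Hoxd9 read 6.5709 in control 1 and in knockouts 1 and 3. Whether such probe sets read above background was not tested.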

Other observations

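Probe sets that the rule left out read related transcripts. Hoxb5os, a transcript antisense to Hoxb5, read 7.43 and 9.11 in controls 1 and 2 and 7.96, 6.63 and 8.09 in knockouts 1, 2 and 3, a difference of -0.71 (SE 0.70), or -0.24 without knockout 2 and 0.13 without control 2. Control 2 was highest and knockout 2 lowest, the order seen for Meis1 and Hoxa9, whereas Hoxb5 itself was highest in knockout 3. The probe set shared by Hoxb8 and Hoxb7 read 6.59 to 7.01 over the 5 arrays. Both probe sets shared by Hoxd4 and Hoxd3, and those of Hoxa11os and Hoxd3os1, were below the filter.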
